A study of Mus musculus with 9 samples.

Results

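Schwann cells, the glia that wrap the axons of peripheral nerves, were followed in RNA-seq of the mouse cochlea through 8 genes chosen by symbol: Pmp22, Mbp, Sox10, Mag, Prx, Egr2, Erbb3 and Mal. All 8 were found by their Ensembl identifiers among the 51912 genes measured. The tissue was cochlea at postnatal day 3, and the groups differ at Pou4f3, a transcription factor gene that hair cells need. The titles name 3 genotypes with 3 libraries each: WT stands for Pou4f3(+/+), HET for Pou4f3(Δ/+) and HOM for Pou4f3(Δ/Δ). The design text describes the HET mice and wildtype littermates. The sources used here give neither what Δ removes, nor any other allele, nor whether a library is 1 animal or a pool. The p-values therefore measure the spread between these libraries, which may be technical.

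The genotype characteristic disagrees with the title in all 9 libraries (it reads HOM where the title has WT, WT where it has HET and HET where it has HOM), and groups follow the titles, so each direction below depends on them. Pou4f3 itself lay at 24.5 to 27.0 FPKM in the libraries titled WT, at 21.7 to 25.6 in HET and at 1.36 to 9.39 in HOM. FPKM is the number of fragments scaled to exon length and library depth. That depth, recovered from the steps in the low values, was 14.3 to 17.4 in units of 1e6 fragments per library. Each HOM library lists 1137 genes, whose libraries lie apart from WT in 100% of the 1109 tested, and among the 8 genes it lists Mag only. The other 7 are not listed there, which is not a level of 0. In the 6 complete libraries HET 1 resembled WT 3 (Pearson r = 0.985 of log2(FPKM + 1) across 15391 genes, which are not independent) more than HET 2 (r = 0.953) or HET 3 (r = 0.956). Group differences, ranges and correlations below are therefore also given without HET 1 or WT 3.

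In a peripheral nerve, Schwann cell precursors read neuregulin 1 on axons through a receptor of ErbB2 and ErbB3. Sox10 keeps cells in the Schwann lineage and, with Pou3f1, turns on Egr2 (also called Krox20), which in turn drives the genes of the myelin sheath. The sheath holds compact layers built with Pmp22 and Mbp, and uncompacted channels and an inner rim where Mag sits. In the cochlea, Schwann cells myelinate the fibres of the spiral ganglion neurons, and satellite glia wrap the neuronal cell bodies. In the mouse these sheaths are laid down in the days after birth. Sox10, Erbb3 and Mal, for example, are not limited to Schwann cells: Sox10 is also made by cochlear epithelium and melanocytes, and Erbb3 and Mal by epithelia. Which cochlear cells made the RNA of each gene was not tested.

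The promoters are shown because 7 of the 8 genes varied together over the libraries, as described below. A RefSeq table on GRCm38.p6 held 14 promoter windows for 5 of the 8 genes (Pmp22, Prx, Mal, Egr2 and Mag), each from 250 bases before to 50 bases after an annotated start. Mbp, Sox10 and Erbb3 had no entry. These short motifs were searched on both strands: GGAATG, the core that Tead factors bind, ACAAAG or ACAATG, cores of Sox factors, and GCGNGGGCG, the site of Egr factors. For each gene 1 window that overlaps no annotated exon of the 8 genes and holds a match is printed. It is given as the 250 bases before the start, 5′ to 3′ on the gene's strand. Overlap with exons of other genes was not checked. Windows clear of the 8 genes' exons but without a match, 2 of Pmp22 and 1 of Egr2, are not printed. Capitals mark the motif match: CATTCC, the reverse complement of GGAATG, in Pmp22 and Prx, GGAATG itself in Mal and Egr2, and CTTTGT, the reverse complement of ACAAAG, in Mag.
Pmp22: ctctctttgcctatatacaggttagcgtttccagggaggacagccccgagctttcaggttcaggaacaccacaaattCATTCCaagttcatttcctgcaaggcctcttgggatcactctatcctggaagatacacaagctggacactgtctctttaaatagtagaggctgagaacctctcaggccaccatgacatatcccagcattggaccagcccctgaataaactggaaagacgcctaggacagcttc
Prx: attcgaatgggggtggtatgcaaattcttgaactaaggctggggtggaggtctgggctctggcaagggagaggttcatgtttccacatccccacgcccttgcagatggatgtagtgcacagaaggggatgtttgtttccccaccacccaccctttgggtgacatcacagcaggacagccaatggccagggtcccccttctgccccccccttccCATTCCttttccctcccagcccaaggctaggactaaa
Mal: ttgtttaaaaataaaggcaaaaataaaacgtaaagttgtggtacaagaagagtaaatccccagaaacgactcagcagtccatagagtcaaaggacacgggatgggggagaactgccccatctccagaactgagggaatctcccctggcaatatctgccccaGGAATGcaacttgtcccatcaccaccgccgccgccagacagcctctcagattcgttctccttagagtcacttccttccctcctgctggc
Egr2: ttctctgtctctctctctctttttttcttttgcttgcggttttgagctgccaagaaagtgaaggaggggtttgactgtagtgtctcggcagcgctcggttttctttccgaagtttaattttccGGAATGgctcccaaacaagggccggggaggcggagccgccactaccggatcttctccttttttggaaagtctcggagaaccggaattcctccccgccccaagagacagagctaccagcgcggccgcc
Mag: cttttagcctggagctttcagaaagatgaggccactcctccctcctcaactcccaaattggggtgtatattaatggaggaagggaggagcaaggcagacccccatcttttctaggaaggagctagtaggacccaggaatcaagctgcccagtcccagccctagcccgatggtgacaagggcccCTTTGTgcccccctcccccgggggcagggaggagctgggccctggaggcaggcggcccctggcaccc
The windows lie at chr11:63128732-63128981 on the plus strand for Pmp22, chr7:27499074-27499323 on the plus strand for Prx and chr2:127656696-127656945 on the minus strand for Mal. Those of Egr2 and Mag lie at chr10:67537316-67537565 on the plus strand and chr7:30914923-30915172 on the minus strand. From the last base of the match to the start, the distance was 167 bases in Pmp22, 121 in Egr2, 83 in Mal, 61 in Mag and 31 in Prx. GGAATG was in 5 of the 14 windows, 1 for each of the 5 genes, against 14.7% of all 32851 windows and 16.6% of 27025 genes. The window of Mag that holds it overlaps an exon and is not printed. ACAAAG or ACAATG was in 2 of the 14 windows, both of Mag, against 28.6% of all windows. GCGNGGGCG was in none of the 14, against 5.55% of all windows. Egr2 had 5 windows and Pmp22 had 4, and a gene with more starts has more windows to match. Such a match describes letters in a window and is not a site shown to be bound.

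Over the 3 WT libraries the levels per length ran from 125 FPKM for Sox10 down to 1.55 for Mag. Between them came Pmp22 at 59.2, Erbb3 at 38.9, Mal at 26.5, Mbp at 21.8, Prx at 10.2 and Egr2 at 3.43 FPKM. The WT libraries of Mal and Mbp overlapped, and those of each other pair of neighbours in that order did not. In the HET libraries, where Pmp22 alone spanned 34.7 to 84.1 FPKM, Pmp22 overlapped Erbb3, Mbp overlapped both Mal and Prx, and Egr2 overlapped Mag. Markers of the lineage outside the 8 genes were present, with Cnp at 17.6 to 38.1 FPKM and Cldn19 at 2.78 to 8.89 FPKM over the 6 WT and HET libraries. Of 10 oligodendrocyte and astrocyte genes, 6 (Mog, Mobp, Opalin, Olig1, Olig2 and Ermn) lay at or under 0.3 FPKM in all 6 WT and HET libraries. The other 4 were measurable, with Aqp4 at 5.28 to 9.88, Slc1a2 at 5.20 to 9.02, Myrf at 2.06 to 2.77 and Gfap at 0.67 to 1.04 FPKM, so that Aqp4, Slc1a2 and Myrf lay above Mag.

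None of the 8 genes differed between HET and WT past the threshold. Mean levels on the log2(FPKM + 1) scale were lower in HET for all 8, by 0.25 at the median and by 0.001 for Mal. Over all 15391 genes tested, the median change was 0.001 in the other direction, higher in HET. The 2 groups of each of the 8 genes overlapped, and the HET libraries spread widely for all but Erbb3. By limma with Benjamini-Hochberg adjustment, 0 of the 8 genes passed an adjusted p of 0.05, and so did 0% of the 15391 genes tested. Of all genes, 266 (1.73%) and none of the 8 had an unadjusted p under 0.05. With limma-voom on recovered fragments 0 genes passed and 211 had an unadjusted p under 0.05. Of all genes tested, 49.6% lay below 0 and 3.12% had every HET library below every WT library (5.94% lay apart in either direction), against 0 of the 8. The 8 signs are not separate pieces of evidence, since the genes varied together over the same libraries. In a whole cochlea, fewer cells of a type and less RNA per cell cannot be told apart.

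**Figure D1:**
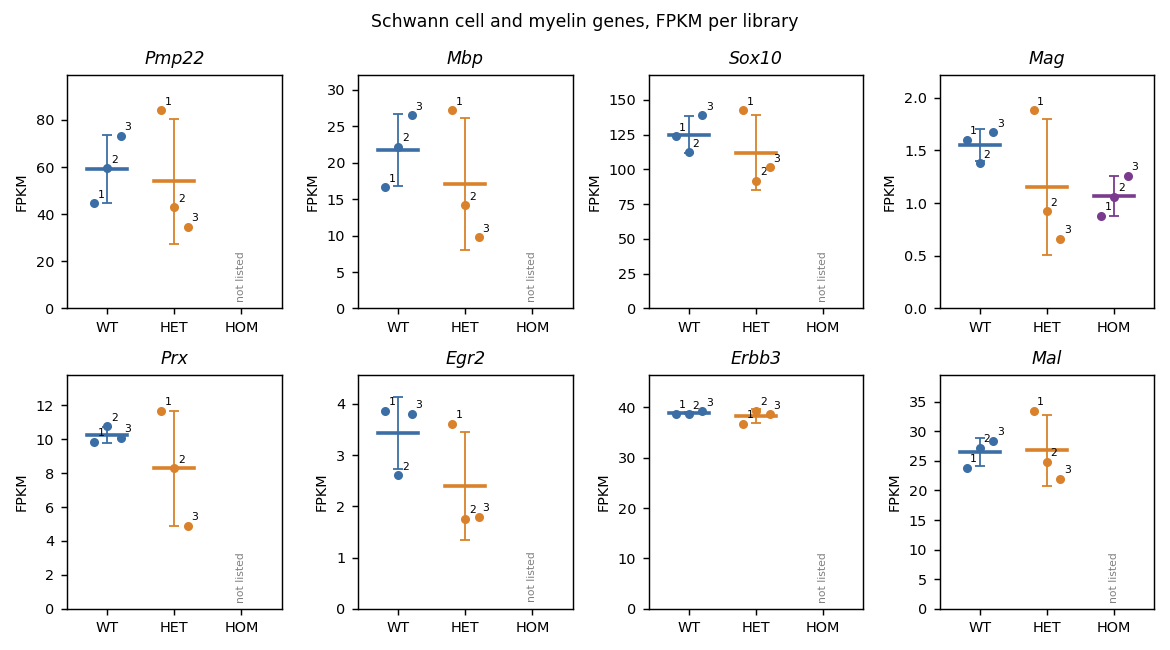
FPKM of each gene (y axis, linear from 0) in every library (points, numbered by replicate) by genotype, with the group mean (bar) and SD (whiskers), n = 3 libraries each. HET 1 is the highest of the 6 WT and HET libraries for 6 of the 8 genes, HET 3 the lowest for 5, and Erbb3 stays within 36.7 to 39.4 FPKM. Only Mag is listed in HOM.

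The regulators came first. Sox10 (ENSMUSG00000033006, chr15:79154908-79165240, minus strand, GRCm38), the transcription factor of the neural crest glia lineage, gave 124, 112 and 139 FPKM in the WT libraries and 142, 91.9 and 102 FPKM in HET, in the order of their replicate numbers, as for every gene below. HET 1 was above every WT library and HET 2 and HET 3 below every one. The means were 125 ± 13.4 and 112 ± 26.9 FPKM (SD, n = 3 each), and the fitted change was −0.18 (SE 0.18, 95% interval −0.60 to 0.25, exact permutation p = 0.5).

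Egr2 (ENSMUSG00000037868, chr10:67535475-67542188, plus strand), the switch of the myelinating state, was at 3.87, 2.61 and 3.81 FPKM in WT and 3.61, 1.76 and 1.80 in HET. HET 1 lay inside the WT range, and HET 2 and HET 3 lay below it. The means were 3.43 ± 0.711 and 2.39 ± 1.06 FPKM (SD, n = 3 each), so HET was at 69.7% of WT, the lowest share among the 8 genes. The change was −0.42 (SE 0.24, interval −0.98 to 0.15), with an exact permutation p of 0.2, where 0.1 is the smallest that 3 against 3 libraries allow. Egr2 rested on 95 to 224 recovered fragments per library, which gave HET 2 a 95% Poisson interval of 1.44 to 2.13 FPKM for counting error only.

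Erbb3 (ENSMUSG00000018166, chr10:128567523-128589652, minus strand), the neuregulin receptor that keeps Schwann precursors alive, behaved unlike the other 7. It was at 38.8, 38.7 and 39.2 FPKM in WT and 36.7, 39.4 and 38.7 in HET. All 6 libraries were within 1.07 times of each other, and HET 1, the highest library for 6 of the genes, was the lowest for Erbb3. The means were 38.9 ± 0.271 and 38.3 ± 1.38 FPKM (SD, n = 3 each). The change was −0.02 (SE 0.067), with the narrowest interval of the 8 genes, −0.18 to 0.14. Of the 15391 genes tested, 1.09% ranged less over the 6 libraries.

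Of the myelin membrane genes, Mbp and Pmp22 ranged the widest of the 8 over the libraries on the log2(FPKM + 1) scale, and Mal the second least. As a ratio of highest to lowest FPKM, Mag ranged the widest at 2.85, against 2.79 for Mbp and 2.43 for Pmp22. Mbp (ENSMUSG00000041607, chr18:82475146-82585637, plus strand), whose protein holds the cytoplasmic faces of compact myelin together, was at 16.6, 22.2 and 26.5 FPKM in WT and 27.2, 14.2 and 9.76 in HET. HET 1 was the highest of the 6 libraries, and HET 2 and HET 3 were below all 3 of WT. The means were 21.8 ± 4.95 and 17.0 ± 9.08 FPKM (SD, n = 3 each). The change was −0.43 (SE 0.36, interval −1.28 to 0.42, exact permutation p = 0.5). A pseudogene, Rpl21-ps8, lies within Mbp on the opposite strand at 10.3 to 18.8 FPKM, and no source used here says whether counting used strand.

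Pmp22 (ENSMUSG00000018217, chr11:63128982-63159547, plus strand), a tetraspan protein of compact myelin whose dosage matters in human neuropathies, was at 44.7, 59.5 and 73.4 FPKM in WT and 84.1, 42.9 and 34.7 in HET. The WT libraries were themselves spread, and again HET 1 was above and HET 2 and HET 3 below all of them. The means were 59.2 ± 14.4 and 53.9 ± 26.5 FPKM (SD, n = 3 each), with a change of −0.21 (SE 0.34, interval −1.03 to 0.61, exact permutation p = 0.7).

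Mal (ENSMUSG00000027375, chr2:127633226-127656695, minus strand), a proteolipid that sorts membrane cargo, was at 23.8, 27.2 and 28.4 FPKM in WT and 33.5, 24.9 and 22 in HET. HET 1 was the highest library, HET 2 lay inside the WT range and HET 3 below it. The group means nearly coincided, at 26.5 ± 2.38 and 26.8 ± 5.99 FPKM (SD, n = 3 each), with an interval of the change from −0.39 to 0.38.

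Prx (ENSMUSG00000053198, chr7:27499324-27520214, plus strand) encodes periaxin, a scaffold of the Schwann cell membrane apposed to the sheath, and varied only in HET. It was at 9.84, 10.8 and 10.1 FPKM in WT and 11.7, 8.28 and 4.89 in HET. The SD of log2(FPKM + 1) was 0.062 in WT and 0.56 in HET, while the medians over all genes tested were 0.13 and 0.17. The means were 10.2 ± 0.483 and 8.29 ± 3.40 FPKM (SD, n = 3 each), and the change was −0.34 (SE 0.26, interval −0.97 to 0.28, exact permutation p = 0.4). An antisense gene over Prx, Gm15541, was at 0.17 to 0.48 FPKM.

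Mag (ENSMUSG00000036634, chr7:30899176-30914873, minus strand) encodes the adhesion molecule on the sheath's inner face against the axon, and was the lowest of the 8 genes. It was at 1.60, 1.38 and 1.67 FPKM in WT, 1.88, 0.92 and 0.66 in HET and 0.88, 1.06 and 1.26 in HOM. HET straddled both other groups, while every HOM library was below every WT library, as in 69.1% of the listed genes tested. These levels rest on 42 to 125 recovered fragments, so that the 95% Poisson interval was 0.476 to 0.892 FPKM in HET 3 and 1.36 to 2.03 in WT 3. The means were 1.55 ± 0.151 in WT, 1.15 ± 0.643 in HET and 1.07 ± 0.190 FPKM in HOM (SD, n = 3 each). The change of HET from WT was −0.28 (SE 0.22, interval −0.80 to 0.24, exact permutation p = 0.4).

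Mag in HOM was at 68.8% of WT, a change of −0.31 (SE 0.092, limma adjusted p = 0.0216 over the 1109 listed genes tested, exact permutation p = 0.1, the smallest possible). Of those genes 93.1% passed the same threshold, 65.4% downwards. Since each listed gene lies apart from WT, the list appears to have been chosen on that difference, which no source used here states, and the value is a description with no independent test. The call was lost under median-ratio scaling (−0.18, adjusted p = 0.133) and upper-quartile scaling (−0.16, adjusted p = 0.168), both computed on listed genes alone. These scalings moved the median change of all listed genes tested from −0.22 to −0.042 and −0.0087, with 653 and 642 genes passing in place of 1032, and 299 and 266 downwards in place of 725. It was also lost without HOM 1 (−0.24, adjusted p = 0.0565), WT 1 (−0.29, 0.0624) or WT 3 (−0.27, 0.0636). HOM differed from HET by −0.023 (SE 0.21, interval −0.53 to 0.48, limma adjusted p = 0.926), where 44.5% of 1090 listed genes passed. The HOM and HET libraries of Mag overlapped, while 61.9% of the listed genes lay apart, 46.2% with HOM lower. Both HOM comparisons use the same HOM libraries. Of all genes tested in HET and WT, 7.35% are listed in HOM, against 1 of the 8.

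The HET libraries differed from each other by more than the groups did. HET 3 held 35.1% of the level of HET 1 for Mag, 35.9% for Mbp, 41.2% for Pmp22, 41.8% for Prx and 49.9% for Egr2. For Mal the share was 65.7%, for Sox10 71.3% and for Erbb3 105%. HET 1 was the highest library for 6 of the 8 genes (25.5% of all genes tested) and HET 3 the lowest for 5 (14.9%). Relative to the WT mean, the median of the 8 genes was 0.19 higher in HET 1, 0.42 lower in HET 2 and 0.63 lower in HET 3 on the log2 scale. The log2 range over the 6 libraries was wider than in 95.8% of all genes tested for Mbp and 93.4% for Prx, with Pmp22 between them. For Egr2, Mag, Sox10 and Mal that share lay between 73.8% and 87.3%. Without HET 1 and WT 3 the shares were 97.2% for Mbp, 96.6% for Prx and 94.1% for Pmp22, and 67.6% to 94.9% for those 4 genes.

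Without HET 1 the changes were larger for 7 of the 8 genes, and still none passed. They were −0.81 for Mbp, −0.66 for Egr2, −0.60 for Prx, −0.58 for Pmp22, −0.51 for Mag, −0.36 for Sox10 and −0.17 for Mal, with limma adjusted p between 0.391 and 0.974 over the 8 genes. The median of the 8 was −0.54. In 6 of the 8 genes both remaining HET libraries lay below all 3 of WT, where 19.6% of all genes tested did the same. Those 6, the 8 less Erbb3 and Mal, had an unadjusted p under 0.05, as did 12.1% of all genes. Without HET 1 and WT 3 together, 5 of 7 genes tested had lower, non-overlapping HET libraries (23.7% of all genes), and the median was −0.41. Mag then fell short of the filter on low values. Without HET 3 the median was −0.082, and Pmp22 and Mal turned to 0.051 and 0.12 above WT. Which HET library is left out thus sets the size of the difference and, for these 2 genes, its sign.

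**Figure D2:**
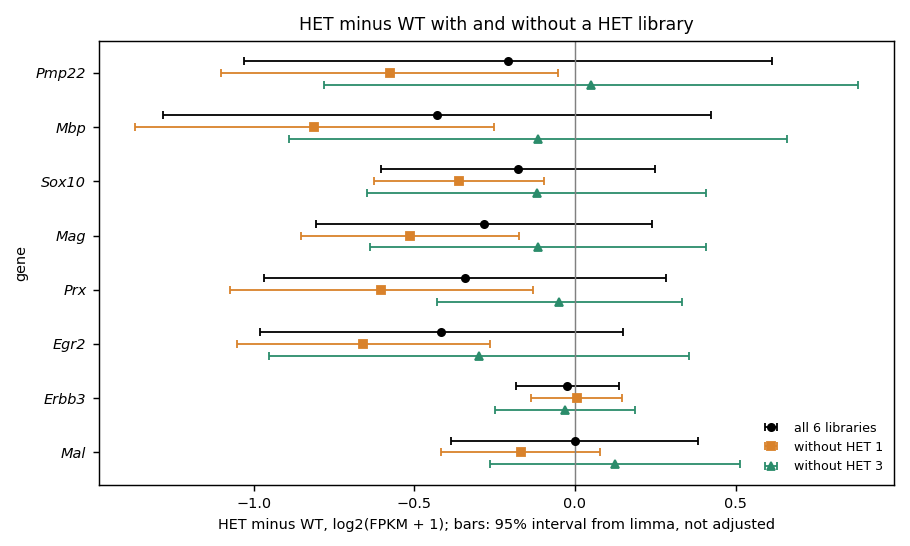
Fitted HET minus WT difference in log2(FPKM + 1) for each gene (x axis), with unadjusted 95% limma intervals, from all 6 libraries, without HET 1 and without HET 3. The intervals from all 6 libraries include 0 for every gene, and the points without HET 1 lie furthest left, at −0.81 for Mbp, except for Erbb3.

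Leaving Erbb3 aside, the genes varied together from library to library. Among the 21 pairs of the other 7 genes, Pearson r of log2(FPKM + 1) over the 6 WT and HET libraries ran from 0.56 to 0.97, with a median of 0.82. Pmp22 with Mbp gave 0.97 and Pmp22 with Mal 0.96, pairs of membrane proteins of the sheath. Egr2 gave 0.93 with Sox10 and 0.93 with Mag. The lowest value was that of Egr2 with Mal. All 7 pairs with Erbb3 were negative, between −0.68 and −0.35. Without HET 1 the 21 pairs ran from 0.49 to 0.98 (median 0.80), but those with Erbb3 from −0.11 to 0.39, with 2 of 7 negative. Without WT 3 the 21 pairs ran from 0.52 to 0.98 and those with Erbb3 from −0.86 to −0.44. Without both, over 4 libraries, the 21 pairs ran from 0.12 to 0.98 (median 0.80). Those with Erbb3 then ran from −0.70 to 0.15 (median −0.097), with 5 of 7 negative. The sign of the pairs with Erbb3 thus depends on which libraries are kept. These values describe 6 libraries that all genes share, with their depth and dissection, and carry no test.

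**Figure D3:**
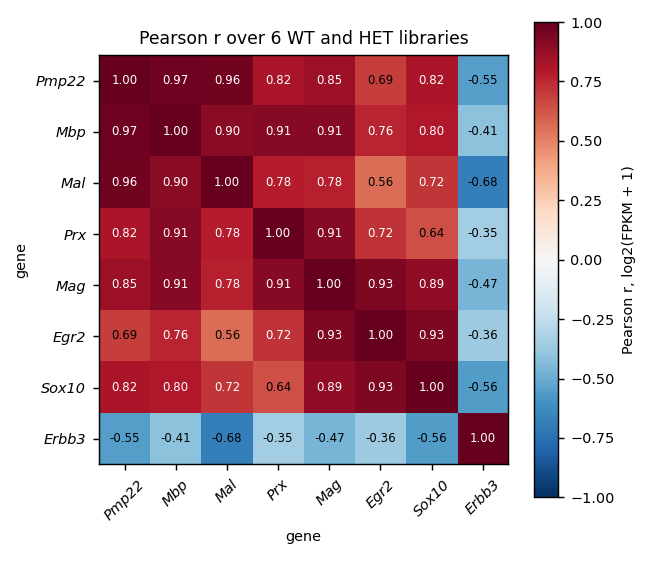
Pearson r between each pair of the 8 genes over the 6 WT and HET libraries, on log2(FPKM + 1), with the colour scale running from −1 to 1. Pmp22, Mbp, Mal, Prx, Mag, Egr2 and Sox10 form a block of positive values from 0.56 to 0.97, and the row of Erbb3 is negative with all 6 libraries, but not in 5 of 7 pairs without HET 1.

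Most other genes of the sheath were highest in HET 1 or WT 3 (9 of 12, against 48.1% of all genes tested) and lowest in HET 2 or HET 3 (9 of 12, against 35.1%). Of the 12 genes of compact and noncompact myelin, 11 were tested, 10 lay below 0 in HET, none passed and the median change was −0.23. Cnp, an enzyme of the uncompacted cytoplasm, was at 24.7, 27.8 and 34.0 in WT and 38.1, 21.2 and 17.6 in HET. Cd9, a tetraspanin, spanned 125 to 153 FPKM in WT and 114 to 159 in HET. Cldn19, a claudin of the sheath's own tight junctions, was at 7.30, 6.92 and 8.17 in WT and 8.89, 4.42 and 2.78 in HET, the largest negative change of the list. In each of these 3 genes HET 1 was the highest of the 6 libraries and HET 3 the lowest. Drp2, the dystrophin-related partner of periaxin, did not share the pattern, at 1.43 to 1.62 FPKM over all 6. Mpzl2 ran the other way, at 10.3, 8.80 and 7.16 FPKM in WT and 6.24, 9.80 and 8.75 in HET, and Ncmap was lowest in WT 2 and Pmp2 highest there. Without HET 1, HET lay below WT with no overlap in 7 of the 10 sheath genes then tested (19.6% of all genes).

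Among 13 regulators of the step into myelination, 9 lay below 0 in HET with a median of −0.10 and none passed. Pou3f1 (also called Oct6), which acts with Sox10 on Egr2, had the largest negative change and was at 2.88, 3.09 and 3.49 FPKM in WT and 3.53, 1.93 and 1.62 in HET. Adgrg6, the adhesion receptor that starts myelination, ran the other way, with 13.5 FPKM in HET 1 and 19.6 and 17.8 in HET 2 and HET 3. The sterol regulators Srebf1 (28.6 to 32.8 FPKM over the 6 libraries) and Srebf2 (27.7 to 36.1) and the Yap1 partner Wwtr1 (23.6 to 29.9) ranged less. Genes of immature Schwann cells numbered 8 tested, of which 7 lay below 0 (median −0.11) and none passed. Gap43 was at 18.0 FPKM in WT 3 and HET 1 and at 9.08 to 12.9 in the other 4 libraries. Sox2, Id2 and Notch1, the most abundant of that list, are also genes of the cochlear epithelium. Notch1 was lowest in WT 3 and HET 1, at 17.6 and 15.9 FPKM.

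For the 12 genes of myelin lipid synthesis the median change was −0.010, with 6 below 0 and none past the threshold. Gal3st1, which makes sulfatide, a lipid rich in myelin, was at 9.24, 9.89 and 15.6 FPKM in WT and 14.9, 8.33 and 6.05 in HET. Scd2, a fatty acid desaturase and the most abundant of the list, was lowest in WT 3 and HET 1, at 159 and 153 FPKM, and at 175 to 182 in the other 4. Ligands and partners of Erbb3 were measured in a list of 12, of which 9 were tested, 3 lay below 0 and none passed (median 0.028). Nrg1, the axonal ligand, was at 0.27 to 0.57 FPKM, and Erbb2, the co-receptor, at 18.3 to 22.4. The sum of this list was lowest in WT 3 and HET 1, at 149 and 146 FPKM, against 168 to 183 in the other 4 libraries. Erbb4 and the protease Adam10 were likewise lowest in HET 1 and WT 3, with HET 1 at 2.68 and 43.7 FPKM and HET 2 at 5.60 and 65.2.

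Cldn19 and Ugt8a are sheath and lipid genes listed in HOM at a lower level. Cldn19 was at 4.44, 3.91 and 6.17 FPKM in HOM, a change from WT of −0.55 (limma adjusted p = 0.0169), which was lost under both scalings (0.0645 and 0.0835). Ugt8a, which makes galactosylceramide, the major glycolipid of myelin, was at 5.53, 5.71 and 5.28 FPKM in WT, 4.82, 5.29 and 5.12 in HET and 3.71, 3.25 and 4.07 in HOM. Its change from WT was −0.48 (limma adjusted p = 0.00471), and passed under both scalings (0.0129 and 0.0253). Both belong to the listed genes that all lie apart from WT, as does Mag.

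The 8 genes summed to 263, 275 and 322 FPKM in WT and to 341, 224 and 214 in HET. Satellite glia and glial precursor genes had the same order of libraries, at 623 to 718 FPKM in WT and 780, 566 and 561 in HET (8 of 10 tested, 5 below 0, none passed). Within that list Fabp7, a lipid carrier of glia, was at 187 and 208 FPKM in WT 3 and HET 1 and 100 to 116 in the other 4, and Foxd3, of the neural crest, at 6.54 and 5.48 against 1.36 to 3.22. Spiral ganglion neuron genes, the axons' own markers, differed in order: their sum was lowest in WT 1 at 85.8 FPKM, with 127 and 154 in WT 2 and WT 3 and 147, 116 and 106 in HET. Of 15 neuron genes tested, 5 lay below 0 and none passed (median 0.056). Single neuron genes shared the peak of the sheath genes: 14 of 16 were highest in HET 1 or WT 3 (48.1% of all genes tested). None of the 16 was lowest in HET 2 or HET 3 (35.1% of all genes tested). The sum of the 8 genes less Sox10 and Erbb3, as a ratio to the neuron sum, was 1.17, 0.974 and 0.933 in WT and 1.10, 0.803 and 0.695 in HET. As a ratio to Tubb3 alone, a tubulin of neurons, the same sum was 15.1, 8.79 and 6.64 in WT and 8.11, 8.80 and 8.74 in HET, so the order of libraries depends on which neuron genes are used. Node of Ranvier genes, of the gaps between sheaths, had a median of −0.011 (10 of 14 tested, 6 below 0, none passed).

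**Figure D4:**
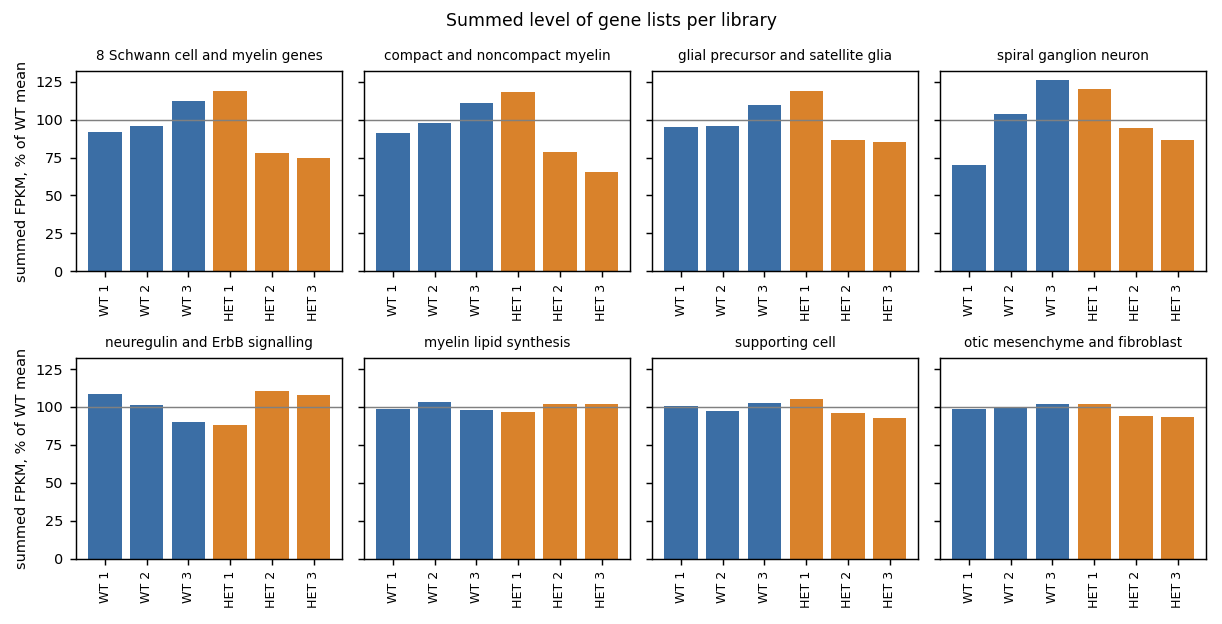
Summed FPKM of 8 gene lists in each WT (blue) and HET (orange) library, as percent of the WT mean (y axis from 0, line at 100). The 8 Schwann cell and myelin genes, the sheath genes and the glial precursor genes are highest in HET 1 and lowest in HET 3, the neuron genes are lowest in WT 1, and the neuregulin and ErbB genes are lowest in HET 1.

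Markers of other cell types in the cochlea were read beside these. Supporting cell genes summed to 1177 to 1243 FPKM in WT and 1120 to 1273 in HET, and mesenchyme genes to 710 to 734 and 672 to 735. Both sums were highest in HET 1 and lowest in HET 3. The supporting cell sum rests largely on Epyc, at 813 FPKM in HET 1 and 606 in HET 3, while Prox1 was at 7.37 and 10.7. Gene by gene, 2 of 8 supporting cell genes and 4 of 9 mesenchyme genes were highest in HET 1 or WT 3 (48.1% of all genes tested). Endothelial genes (62.1 to 66.0 in WT, 54.1 to 67.4 in HET), macrophage genes (31.3 to 38.5, 27.4 to 36.3) and hair cell genes (85.3 to 113, 89.6 to 106) overlapped between the groups. Melanocyte genes were at 30.1 FPKM in WT 1 and 11.9 to 15.6 elsewhere, and skeletal muscle genes at 1.75 to 2.79 in all 6, with 5 of 7 at or under 0.3 FPKM. Bone genes were at 53.5 to 85.1 in WT and 42.9 to 76.6 in HET, with all 5 tested below 0 (median −0.68) and 2 with an unadjusted p under 0.05. Erythroid genes were at 107 to 171 and 62.7 to 145. No gene of these lists or of the central glia list (13.5 to 22.6 FPKM) passed in HET against WT, and no list's genes were all at 0. The part of these cell types in the spread of the 8 genes was not tested.

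The genes whose pattern over the 6 libraries was most like that of the 8 were ranked by Pearson r with the mean z-score of all 8, among 12969 tested genes other than predicted ones. Among the first 10 were Kcnab3 (0.998), Cited1 (0.997), P2rx7 (0.995), Tceal1 (0.994), Pmm1 (0.994), Rab5c (0.993), Abhd8 (0.991), Wdr1 (0.991) and Sema3b (0.990). Kcnab3 was at 1.95, 2.08 and 2.42 FPKM in WT and 2.39, 1.62 and 1.32 in HET. Of the regulator and sheath lists, Pou3f1 came at rank 19, Cldn19 at 36 and Cnp at 76. Other genes of these lists had negative r, with Drp2 at rank 9305 (−0.600), Mpzl2 at 9383 (−0.614) and Adgrg6 at 10931 (−0.799). Such values were common over these 6 libraries: 835 genes (6.44%) exceeded 0.9, and the reason was not tested. Of the first 10 genes, 3 were among the first 10 without HET 1, 3 without WT 3 and 0 without both, although all 10 kept r of at least 0.963.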

How the data were processed

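RNA-seq of 9 mouse cochlea libraries at postnatal day 3 was used as deposited. Per the labels' protocols, RNA with an integrity number above 6.5 was poly(A) selected or depleted of rRNA (the protocol does not say which), randomly primed and read on an Illumina HiSeq. The values are FPKM per library, computed by the authors and rounded to 2 decimals. The submitters' processing notes name DESeq2 and mm8, and no source used here names the aligner, counter or annotation. Identifiers were matched to GENCODE M21 (GRCm38), where 51633 of 51912 had a symbol. The coordinates printed are those of GRCm38.

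Groups followed the titles. The test was limma (version 3.58.1, R 4.3.3) with a mean-variance trend on log2(FPKM + 1). It kept genes that reached 1 FPKM in 3 or more of both groups' 6 libraries and was two-sided, with Benjamini-Hochberg adjustment over all genes tested and a threshold of 0.05. The pseudocount of 1 understates the changes of low genes. Single genes also had a two-sided exact permutation test. The fit was tested on simulated data. Depth came from the FPKM steps, where 99.4% to 100% of low values were whole fragments within 0.1 (16 to 19 values in each HOM library), and intervals cover counting error only. The recovered depth is not independent of that check.

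The members and gene lists were chosen with earlier results of these data known. Named are the 8 genes and Pou4f3, in each list the 3 of highest mean and those of the largest change either way, and the 10 most alike. Nrg1, Ugt8a, Tubb3, Mpzl2, Ncmap, Pmp2 and the central glia genes were named after their values were seen, and some genes the rule names are not reported here. Alternatives were another pseudocount, no filter, other scalings, no trend, a replicate block, leaving out libraries and limma-voom. The correlations and ranges without HET 1 or WT 3 and the ratio to Tubb3 were added after seeing the data.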

Additional observations from a re-analysis of the deposited data

How the results depend on the processing

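Over all alternatives of HET against WT, 0 of the 8 genes passed the limma threshold, with adjusted p from 0.223 to 1, and 104 of 111 changes kept their direction. The other 7 turned positive: Erbb3 at 0.005 without HET 1 and 0.011 without HET 1 and WT 3, Pmp22 at 0.051 without HET 3, and Mal at 0.12 without HET 3, 0.050 without WT 3, 0.040 without HET 2 and 0.02 without WT 2. All 7 came from leaving out libraries. Dropping the filter or the trend, or adding the replicate block, cannot move these estimates. The directions under those settings were therefore fixed in advance, and the count of 104 includes them. Leaving out 1 library gave −0.044 to 0.005 for Erbb3, −0.58 to 0.051 for Pmp22 and −0.17 to 0.12 for Mal. The median of the 8 genes then ran from −0.54 to −0.082, and 0 to 1 genes of all those tested passed, 1 without WT 1 and 1 without WT 2. The change of Mag from WT to HOM was −0.18 with median-ratio scaling, −0.16 with upper-quartile scaling, and −0.37 to −0.24 leaving out 1 library. Its change from HET to HOM turned to 0.0035 with a pseudocount of 0.1, 0.062 under median-ratio scaling and 0.10 under upper-quartile scaling, and ran from −0.19 to 0.043 leaving out 1 library. Without HOM 2, HOM 3 or HET 1, Mag missed the filter in that comparison and has no value. The causes were not tested, and the scalings for HOM rest on listed genes only. Deviations of same-numbered WT and HET libraries correlated at −0.52, 0.29 and −0.47, and those of other-numbered libraries at −0.56 to 0.64. With 3 libraries per group and HET 1 so like WT 3, these values cannot tell whether replicate numbers pair the libraries. With the replicate number as a block, 0 genes passed in HET against WT, 173 in place of 266 had an unadjusted p under 0.05, and Mag had a limma adjusted p of 0.0331 in HOM against WT. The block also moved the listed genes that passed from 1032 to 909 against WT and from 485 to 304 against HET. Mag and Egr2, at 42 to 224 fragments, are the most limited by depth.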
